A study of Homo sapiens with 2 samples.

Results

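The proteasome genes described here are 40 genes of the human genome that encode the subunits of the constitutive proteasome and of the immunoproteasome, the 11S activators and 3 chaperones that assemble the base of the regulatory particle. The 19S subunits ADRM1 and SEM1 are not among the 40 and were read with the related genes. The 40 genes were chosen by name, not by their values, and were found on the array through the RefSeq accession of each probe. They are 40 of the 17240 genes that could be named on the array, which carried 57 probes for them among 41000 probes in all, 1 probe for 27 of the genes and several for the other 13. The genes fall into the alpha ring (PSMA1 to PSMA7), the non-catalytic beta subunits (PSMB1 to PSMB4), the constitutive catalytic subunits (PSMB5 to PSMB7), the immunoproteasome subunits (PSMB8 to PSMB10), the base ATPases (PSMC1 to PSMC6), the scaffolds and ubiquitin receptor of the base (PSMD1, PSMD2 and PSMD4), the lid (PSMD3, PSMD6, PSMD7, PSMD8, PSMD11, PSMD12, PSMD13 and PSMD14), the base assembly chaperones (PSMD5, PSMD9 and PSMD10) and the 11S activators (PSME1 to PSME3).

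The study asked which genes change when RUNX2 is suppressed in SKOV3, a human ovarian adenocarcinoma cell line grown as adherent cells with fetal calf serum. The knockdown RNA came from cl-sh3, a clone that stably carries a RUNX2 short hairpin RNA in the lentiviral vector pLKO.1-puro, and the control RNA came from a mock clone that carries a scramble sequence in the same vector. Both clones went through lentiviral infection and puromycin selection, and each is 1 clone, so a difference between clones cannot be told apart from an effect of the hairpin. The 2 RNAs were labelled with Cy3 and Cy5 and applied in pairs to Agilent whole human genome arrays, with cl-sh3 in Cy5 in hybridization 1 and in Cy3 in hybridization 2. Both hybridizations used the same 2 RNAs on 1 slide and count as 1 replicate, so no test between the clones was possible, no p-value is given, and the gap between the hybridizations shows technical error only.

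All values below are log2 ratios of cl-sh3 over control after background correction and loess normalization, so a positive value means a higher signal in cl-sh3. The brightest probe of a gene stands for it. The targeted gene RUNX2 had log2 ratios of -2.04 and -1.30 in hybridizations 1 and 2 on its brightest probe, while its 2 dimmer probes had 0.17 and -0.13, and -0.29 and -0.17. Of the 41000 probes, 36065 were kept because the same RNA was detected well above background on each hybridization, and 36060 of these had a ratio in both. The software flagged 77.3% to 93.9% of the spots of a channel as well above background and none as saturated. Of the markers of this carcinoma line (keratins, EPCAM, ERBB2, PAX8 and others), 12 of 12 were well above background, but so were 6 of 6 leukocyte markers and 4 of 5 matched fibroblast and endothelial markers, the latter at log2 ratios whose means lay between -0.15 and 0.18. No marker of another cell type was at least 1.5-fold changed in both hybridizations. Both RNAs came from clones of 1 cell line, so a signal well above background is no evidence of such cells. What gave these signals was not tested.

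The proteasome is the protease that degrades proteins tagged with ubiquitin. Its 20S core is a barrel of alpha rings, which gate the entrance, around beta rings, which hold the proteolytic sites, and its 19S regulatory particle has a base of ATPases that unfold substrates and a lid that removes ubiquitin. Interferon gamma induces 3 alternative catalytic subunits, which replace the constitutive ones in newly assembled cores to form the immunoproteasome, and it induces the 11S activator PA28, and both shape the peptides presented on MHC class I. When proteasome activity is short, the transcription factor NFE2L1 raises the genes of nearly all constitutive subunits together.

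The proteasome genes did not move as a block between the clones. Of the 40 genes, 18 (45%) were higher in cl-sh3 in both hybridizations and 11 (27.5%) were lower in both, and the other 11 had opposite signs. Among all kept probes the same rules held for 29.8% (higher) and 27.3% (lower), and among all named genes for 30.9% and 28.4%. All 40 genes were well above background in both RNAs and both hybridizations, and they were bright, with a median log2 intensity of 14.24 against 9.36 over all kept probes. Among the 7914 probes in the members' own range of brightness, 33.4% were higher in both hybridizations and 35.7% lower in both. These probes share the range only and were not matched to the members within it. At log2 intensities of 12 to 14 lay 12 members and 3730 probes, and at 14 to 16 lay 19 members and 1481 probes. The median log2 ratio of the 40 genes was 0.00 in hybridization 1 and 0.22 in hybridization 2, with a median of 0.09 for the mean of both, against 0.02, 0.00 and 0.01 over all kept probes.

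Large changes were few. PSME2 and PSMA2 were at least 1.5-fold higher in both hybridizations. That level was reached by 1.35% of all kept probes and 3.4% of the probes in the members' range of brightness. No member was at least 1.5-fold lower in both, against 2.32% of all kept probes and 4.69% of the probes in the members' range of brightness. None was changed at least 2-fold in both, against 0.516% of all kept probes. Such shares amount to few genes among 40, so these absences say little. Only technical error can be read from the pair of hybridizations. The log2 ratios of a member differed between hybridizations by a median of 0.30 and by 0.53 at the 95th percentile, against 0.22 and 0.63 over all kept probes. Across the 40 genes, which are no independent replicates and share both RNAs, the ratios of the hybridizations correlated with Pearson's r of 0.72 and Spearman's rho of 0.78. Most member ratios therefore lay within the range by which the same RNAs differed on repeat, and a single ratio below about that size is not resolved here.

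**Figure D1:**
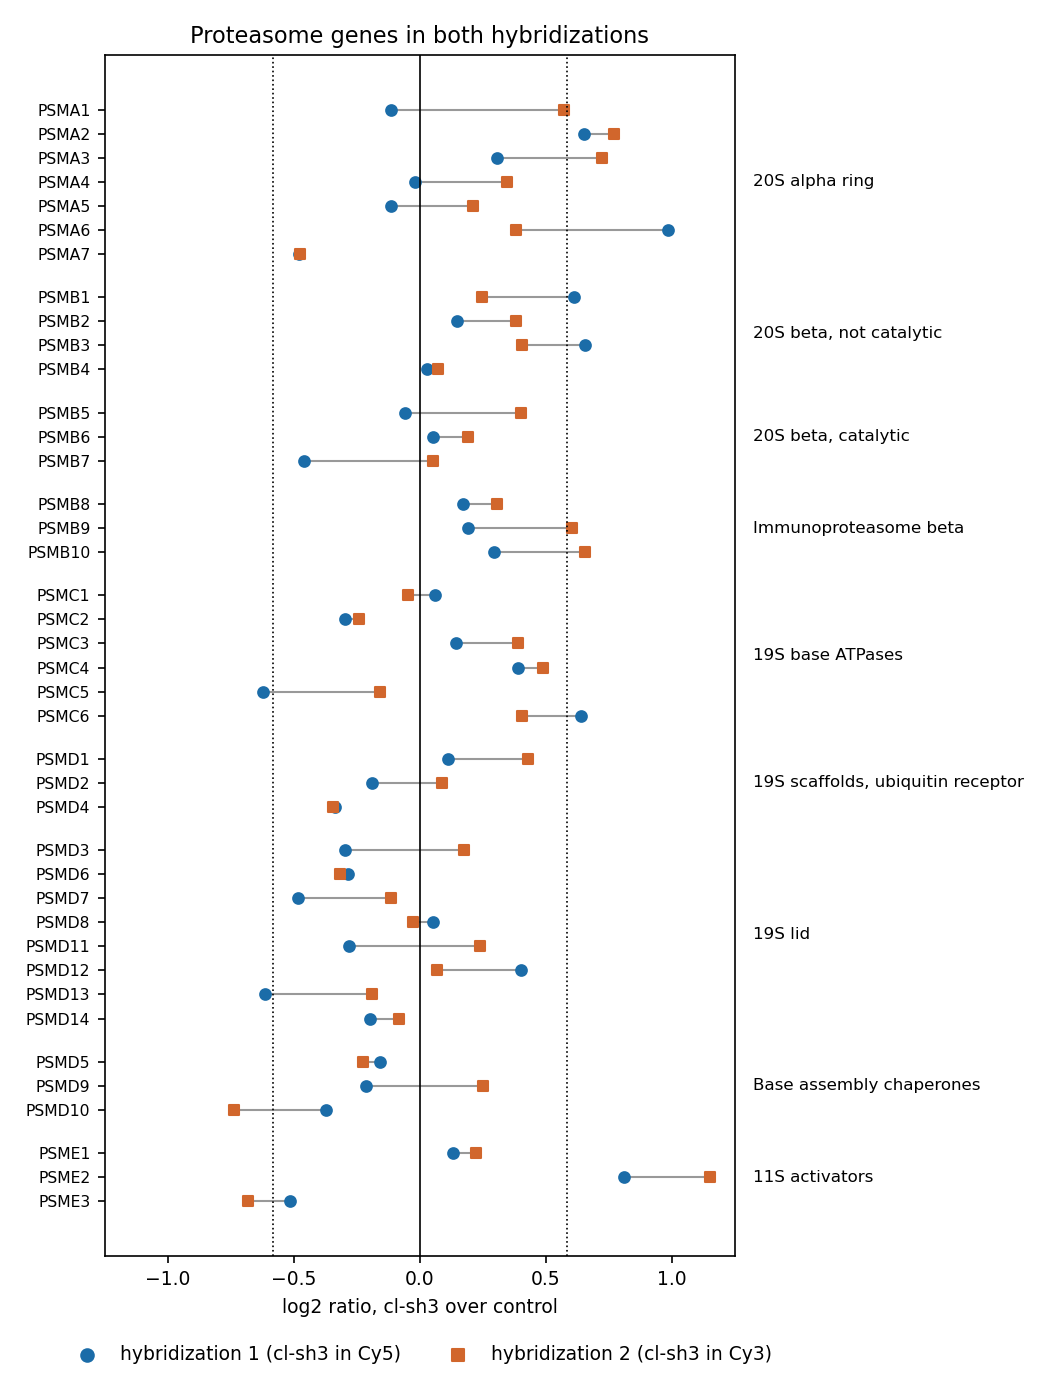
Log2 ratios of cl-sh3 over control (x axis) for the brightest probe of each of the 40 proteasome genes (rows, by structural group), with hybridization 1 as circles and hybridization 2 as squares joined by a line. Dotted lines mark 1.5-fold, and only PSMA2 and PSME2 have both points beyond the right one, while the lid has 4 genes with both points left of 0.

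The alpha ring was divided with loess, and how far depended on the scaling. PSMA2, PSMA3 and PSMA6 were higher in cl-sh3 in both hybridizations, PSMA7 was lower in both, and PSMA1, PSMA4 and PSMA5 had opposite signs, each below 0 in hybridization 1 only. Of all named genes, 30.9% were higher in both with loess and 28.4% were lower. With median centring 6 of the 7 genes were higher and 1 was lower, and with the scanner software's or the deposited ratios 5 were higher and 1 was lower, PSMA7 being the lower gene each time. The normalized intensity of PSMA2 was 16270.4 in the control and 25548.2 in cl-sh3 in hybridization 1, and 14063.1 and 23965.7 in hybridization 2. The cl-sh3 value lay above the control value in each hybridization, and the log2 ratios were 0.65 and 0.77, a mean of 1.64-fold. The arrays were not scaled to each other, so intensities compare directly only within a hybridization. PSMA6 had log2 ratios of 0.98 and 0.38 on its brightest probe, and 0.72 and 0.53 on its second probe. Its means were 0.68 and 0.63, so its probes placed it beside PSMA2. PSMA3 had ratios of 0.31 and 0.72.

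PSMA7 was lower in both hybridizations. Its normalized intensity was 45561.6 in the control and 32661.7 in cl-sh3 in hybridization 1, and 46057.8 and 33114.3 in hybridization 2. The log2 ratio was -0.48 in both hybridizations, the closest repeat among the 40 genes, with a difference of 0.0042. The ratios of PSMA2 and PSMA7, subunits of the same ring, thus differed in sign in both hybridizations. RNA ratios from different probes give the change between clones and not the amount of one subunit relative to the other.

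The non-catalytic beta subunits all had positive ratios, with PSMB4 close to 0. PSMB1, PSMB2 and PSMB3 had mean log2 ratios of 0.43, 0.26 and 0.53, and PSMB4 had 0.05. The median of the 4 genes was 0.38 in hybridization 1 and 0.31 in hybridization 2. PSMB1 was the brightest member, and its second probe had a mean of 0.28. PSMB4 kept both ratios above 0 with loess and with median centring, but not with the ratios of the scanner software, where its lower ratio was -0.15.

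The constitutive catalytic subunits and the immunoproteasome subunits were set against each other in their known pairs. PSMB5 carries the chymotrypsin-like activity and is replaced by PSMB8, PSMB6 carries the caspase-like activity and is replaced by PSMB9, and PSMB7 carries the trypsin-like activity and is replaced by PSMB10. All 3 immunoproteasome genes were higher in cl-sh3 in both hybridizations, and so they were with loess, with median centring and with the scanner software's ratios. Of the constitutive genes only PSMB6 was higher in both with loess, only PSMB5 with the scanner software's or the deposited ratios, and both of them with median centring. The medians were 0.19 and 0.60 for the immunoproteasome genes and -0.06 and 0.19 for PSMB5 to PSMB7. Over all 31 constitutive subunits of the core and the 19S particle, the medians were -0.02 and 0.19, with 13 higher, 8 lower and 10 of opposite sign. With median centring these counts were 19, 6 and 6, and with the scanner software's ratios 16, 8 and 7. Of the probes in the members' range of brightness, 33.4% were higher and 35.7% lower in both with loess. The shares were 41.7% and 28.1% with median centring, and 38.3% and 37.1% with the scanner software's ratios.

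PSMB10 had a normalized intensity of 16718.2 in the control and 20515.0 in cl-sh3 in hybridization 1, and of 15704.6 and 24736.3 in hybridization 2, which gives log2 ratios of 0.30 and 0.66. Its partner PSMB7 had 81320.1 in the control and 59125.0 in cl-sh3 in hybridization 1, and 63807.9 and 66212.1 in hybridization 2, with ratios of -0.46 and 0.05. For PSMB10 the cl-sh3 value lay above the control value in each hybridization, while for PSMB7 it did so in hybridization 2 only. The ratio of PSMB10 exceeded that of PSMB7 by 0.76 and 0.60, a mean difference of 0.68 or a 1.60-fold shift of the pair towards PSMB10. This was the widest of the 3 pairs in both hybridizations. A pair carries the technical error of 2 genes, and the ratios of PSMB7 alone differed by 0.51 between the hybridizations.

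PSMB9 had intensities of 6935.7 (control) and 7913.8 (cl-sh3) in hybridization 1 and of 5487.7 and 8326.5 in hybridization 2, with log2 ratios of 0.19 and 0.60. PSMB6 had 34099.3 and 35373.2, then 27759.3 and 31704.5, with ratios of 0.05 and 0.19. The difference of this pair was 0.14 and 0.41, with a mean of 0.27. PSMB9 was higher in cl-sh3 in each hybridization, and the gap between its hybridizations was larger than its ratio in hybridization 1.

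PSMB8 had intensities of 5289.8 (control) and 5951.3 (cl-sh3) in hybridization 1 and of 4636.8 and 5734.0 in hybridization 2, with log2 ratios of 0.17 and 0.31. PSMB5 had 24896.1 and 23920.1, then 22363.3 and 29512.9, with ratios of -0.06 and 0.40. The difference of this pair was 0.23 in hybridization 1 and -0.09 in hybridization 2, so it had no settled sign, and with median centring its mean was -0.0064 in place of 0.07. The immunoproteasome gene thus had the higher ratio of its pair in both hybridizations for PSMB9 and PSMB10 but not for PSMB8.

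**Figure D2:**
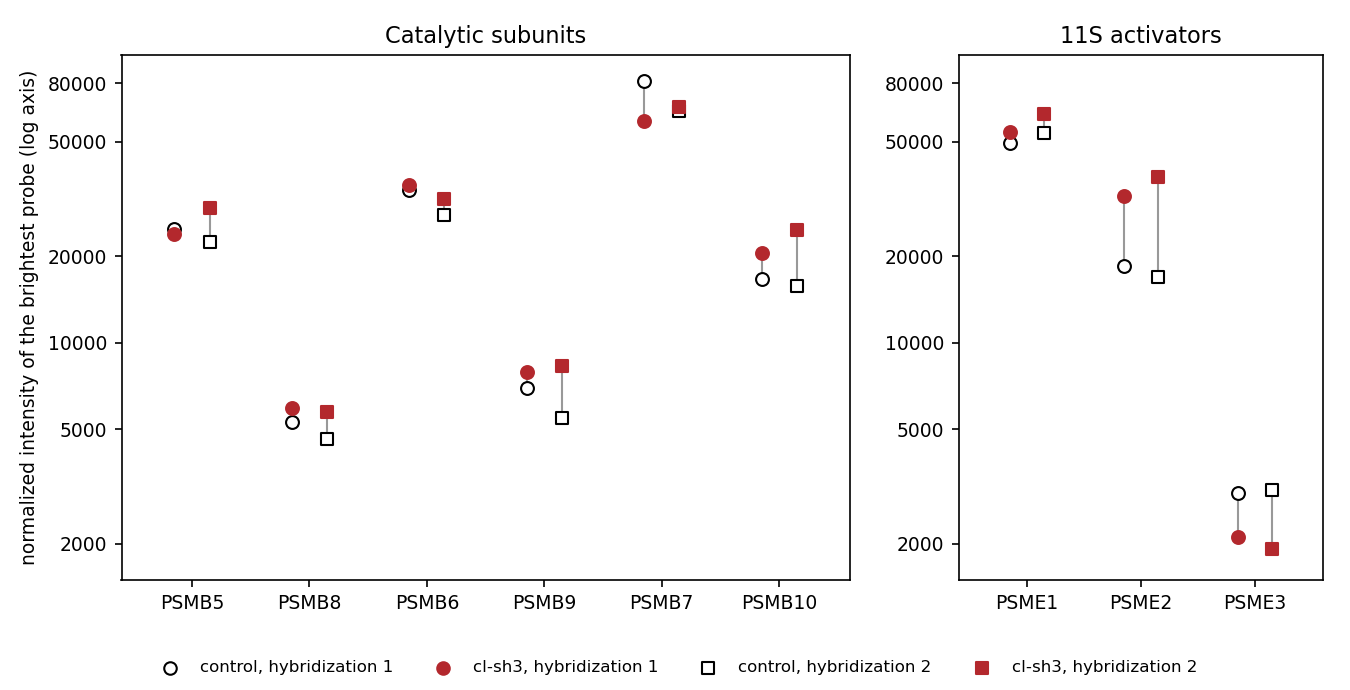
Normalized intensity (log axis) of the brightest probe of the catalytic subunits, each constitutive gene followed by its immunoproteasome counterpart (left panel), and of the 11S activators (right panel), in the control (open) and cl-sh3 (filled) in hybridization 1 (circles) and hybridization 2 (squares). Heights compare the clones within a gene and a hybridization and not the genes with each other. PSMB10 and PSME2 show filled above open points in both hybridizations while PSME3 shows the reverse.

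The 11S activators held both the highest and the lowest member. PSME1 and PSME2 encode the alpha and beta chains of PA28, the interferon-inducible cytosolic activator, and PSME3 encodes PA28 gamma, a nuclear activator that interferon does not induce. PSME2 had a normalized intensity of 18482.5 in the control and 32354.2 in cl-sh3 in hybridization 1, and of 16988.5 and 37681.7 in hybridization 2. The cl-sh3 value lay above the control value in each hybridization, with log2 ratios of 0.81 and 1.15 and a mean of 0.98 or 1.97-fold. Its partner chain PSME1 had 49471.6 and 54150.1, then 53590.9 and 62550.2, with ratios of 0.13 and 0.22. A second, dimmer probe of PSME1 had opposite signs, at -0.10 and 0.44. On their brightest probes the chains that form 1 ring therefore differed by more than the gap between hybridizations of either.

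PSME3 had a normalized intensity of 3005.5 in the control and 2104.3 in cl-sh3 in hybridization 1, and of 3081.7 and 1917.6 in hybridization 2. The cl-sh3 value lay below the control value in each hybridization, with log2 ratios of -0.51 and -0.68 and a mean of -0.60. This was the lowest mean among the 40 genes. Its 2 dimmer probes, which carry the accession of another transcript, had ratios of 0.05 and -0.18 and of 0.15 and -0.08, so the lower signal was seen with the brightest probe only, and the mean of all 3 probes was -0.21.

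The sequences just upstream of these genes are shown because PSME2, PSME1 and PSMB10 share a match to the interferon-stimulated response element, the site bound by interferon regulatory factors. The window ran from 250 bases before to 50 bases after the RefSeq start of the gene, in assembly GRCh38.p14, and was found for 35 of the 40 genes. The element was searched on both strands as GAAA, any 2 bases and GAAA again. It is in capitals in the windows of PSME2 (chr14:24146561-24146860, minus strand), PSMB10 (chr16:67936801-67937100, minus strand) and PSME1 (chr14:24135944-24136243, plus strand), and in PSME1 it reads as the reverse complement. For comparison, the window of PSMB5 (chr14:23035171-23035470, minus strand) has no such match and has the core hexamer of RUNX factors, TGTGGT, in capitals.
PSME2: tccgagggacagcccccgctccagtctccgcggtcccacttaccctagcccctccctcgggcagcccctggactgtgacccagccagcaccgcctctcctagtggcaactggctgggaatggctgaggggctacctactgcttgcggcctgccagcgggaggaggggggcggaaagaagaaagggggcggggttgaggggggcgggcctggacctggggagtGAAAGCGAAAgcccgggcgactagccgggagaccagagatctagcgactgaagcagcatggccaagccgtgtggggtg
PSMB10: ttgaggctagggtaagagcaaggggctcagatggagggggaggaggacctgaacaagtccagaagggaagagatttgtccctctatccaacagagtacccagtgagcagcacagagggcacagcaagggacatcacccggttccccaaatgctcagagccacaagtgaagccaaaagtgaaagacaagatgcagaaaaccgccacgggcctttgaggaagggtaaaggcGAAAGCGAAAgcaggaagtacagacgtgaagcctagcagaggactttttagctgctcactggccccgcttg
PSME1: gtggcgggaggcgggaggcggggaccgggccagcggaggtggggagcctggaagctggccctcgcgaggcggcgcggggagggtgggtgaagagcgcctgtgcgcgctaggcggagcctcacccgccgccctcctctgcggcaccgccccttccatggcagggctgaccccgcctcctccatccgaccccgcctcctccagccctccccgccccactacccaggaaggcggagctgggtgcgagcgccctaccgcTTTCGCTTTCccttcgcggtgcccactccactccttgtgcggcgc
PSMB5: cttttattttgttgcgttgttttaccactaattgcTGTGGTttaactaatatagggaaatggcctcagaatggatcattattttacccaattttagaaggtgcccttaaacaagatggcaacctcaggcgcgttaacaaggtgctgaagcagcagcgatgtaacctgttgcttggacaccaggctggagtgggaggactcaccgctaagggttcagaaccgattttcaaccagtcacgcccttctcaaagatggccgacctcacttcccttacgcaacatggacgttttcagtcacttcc

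The response element began 28 bases before the start in PSME2, 21 bases before it in PSMB10 and at position 6 after it in PSME1. It was found in 5 of the 35 member windows (14.3%), the others being PSMA4 and PSMB4, and in 3.65% of 27305 windows of all genes. The windows of PSMB8 and PSMB9 held no match, which says only that these letters are absent from the windows. Of the 5 genes with the match, PSME2 and PSMB10 had means of 0.98 and 0.48, PSME1 and PSMA4 had 0.18 and 0.16, and PSMB4 had 0.05. The gamma-activated site, searched as TTCNNNGAA, was in 4 windows (11.4%: PSMA2, PSMC4, PSMD3 and PSME3) against 7.88% of all windows. Its 4 genes include PSMA2, among the highest members, and PSME3, the lowest. The hexamer TGTGGT, searched on both strands as a match to the factor that was knocked down, was in 6 windows (17.1%) against 13.1% of all. Of these genes PSMA3 was higher in both hybridizations, PSMC5, PSMD6 and PSMD13 were lower in both, and PSMB5 and PSMD9 had opposite signs. A match is a description of the letters and not evidence of binding.

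Other genes of the interferon response and of antigen presentation were read as a list beside the immunoproteasome. Of 21 such genes kept, 8 were higher in both hybridizations, 3 were lower in both and 10 had opposite signs, with a median of 0.04. Over all named genes the shares were 30.9% higher in both and 28.4% lower in both. IRF1, a factor that drives immunoproteasome genes after interferon gamma, had opposite signs, at 0.22 and -0.31. TAP1, a chain of the peptide transporter whose gene lies beside PSMB9 and PSMB8, had ratios of 0.39 and 0.33, and TAP2 on the other side of PSMB8 had 0.19 and -0.06. WARS1, the tryptophan tRNA synthetase that interferon gamma induces and that also serves translation, was the only gene of the list at least 1.5-fold changed in both hybridizations, and it was lower, at -0.60 and -0.76. ERAP2, a peptidase that trims peptides for MHC class I, and TAPBP, which bridges the transporter to MHC class I, had means of 0.68 and 0.60, about the size of that of WARS1 (-0.68). Their ratios, 0.34 and 1.02 for ERAP2 and 0.98 and 0.23 for TAPBP, passed 1.5-fold in 1 hybridization each. IRF1, TAP1, TAP2, ERAP2 and TAPBP were chosen after their values were seen.

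In the 19S particle, the base ATPases, which thread substrates into the core, were divided. PSMC3, PSMC4 and PSMC6 were higher in both hybridizations and PSMC2 and PSMC5 were lower in both, while PSMC1 was at 0.06 and -0.05. PSMC6 had the highest mean, 0.52, and its 4 probes had means between 0.41 and 0.52. PSMC5 had -0.62 and -0.16. These 6 subunits form a single ring, and the span of their means, from -0.39 to 0.52, was nearly as wide as that of the alpha ring, from -0.48 to 0.71. Of the scaffolds, PSMD1 had 0.11 and 0.43 on its brightest probe with a mean of -0.01 on its second, and PSMD2 had -0.19 and 0.09. The ubiquitin receptor PSMD4 had -0.34 and -0.35, but with median centring its mean was -0.14 and its ratio in hybridization 1 was 0.06.

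With loess the lid had 4 of 8 genes lower in both hybridizations and 1 higher, against 28.4% and 30.9% of all named genes. PSMD6, PSMD7, PSMD13 and PSMD14 were lower in both hybridizations, PSMD12 was higher in both, and PSMD3, PSMD8 and PSMD11 had opposite signs. The median of the 8 genes was -0.28 in hybridization 1 and -0.06 in hybridization 2, and the median of their mean ratios was -0.10. That last median turned to 0.02 with median centring in place of loess. There 3 lid genes were higher in both, 3 were lower and PSMD14 had opposite signs. PSMD13 had -0.61 and -0.19, the lowest mean of the lid. PSMD14, the deubiquitinase of the lid, had -0.20 and -0.08, and its partner PSMD7 had -0.49 and -0.11. No lid gene was at least 1.5-fold lower in both hybridizations.

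The chaperones that assemble the base are not part of the finished particle. PSMD10, also known as gankyrin, had a normalized intensity of 11121.9 in the control and 8583.5 in cl-sh3 in hybridization 1, and of 12597.1 and 7547.2 in hybridization 2. The cl-sh3 value lay below the control value in each hybridization, with log2 ratios of -0.37 and -0.74 and a mean of -0.56, the second lowest of the 40 genes. PSMD5 had -0.16 and -0.23 on its brightest probe, and -0.95 and -0.42 on a much dimmer one. PSMD9 had -0.21 and 0.25.

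Core and regulatory particle were then compared, a contrast chosen after the values were seen. Of the 17 genes of the 20S core, immunoproteasome included, 11 were higher in both hybridizations and 1 was lower in both. Of the 17 subunits of the 19S particle among the 40 genes, 5 were higher in both and 7 were lower in both, and with ADRM1 and SEM1 the count was 7 higher and 7 lower of 19. Among the probes in the members' range of brightness, 33.4% were higher in both and 35.7% lower in both, and the 19S counts lay near these shares. The medians of the core were 0.15 and 0.38, and those of the 19S subunits were -0.20 and -0.03, so that the core lay above the particle by 0.34 and 0.41 in the separate hybridizations and by 0.29 in the means. With ADRM1 and SEM1 the 19S medians were -0.19 and 0.07, and the core lay above them by 0.33 and 0.31, and by 0.26 in the means. Without the immunoproteasome genes, the 14 constitutive core genes had medians of 0.04 and 0.36, with 8 higher and 1 lower. The groups overlapped widely, since PSMA7 lay below all the 19S subunits and PSMC6 lay above all but 3 core genes.

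The level of both groups depended on the normalization, and their order did not. With median centring, 24 members were higher in both hybridizations and 9 were lower, so that 72.7% of the genes with a settled sign were higher, against 62.1% with loess. Among the probes in the members' range of brightness, that share was 59.7% with median centring and 48.4% with loess, so it moved in the same direction. The median of all members was then 0.26 and that of the probes in the members' range was 0.08, against 0.09 and 0.00 with loess. The cause was not tested. The 20S core had 15 genes higher and 1 lower, and the 19S subunits had 7 higher and 5 lower with a median of 0.05 in place of -0.05. Of the probes in the members' range of brightness, 41.7% were then higher in both and 28.1% lower. Across 8 processings of the signals, 16 members had both ratios above 0 in each and 9 had both below 0 in each. Of all kept probes, 28.9% to 33.8% were higher in both and 25.7% to 28.6% were lower in both in a single processing. The share of probes that kept 1 sign in all 8 was not counted. The processings are not 8 separate checks. Scaling between arrays left the loess ratios unchanged, no member probe was flagged, and the deposited ratios nearly equal those of the scanner software. The pair past 1.5-fold was PSME2 and PSMA2 with loess and with median centring. It was PSME2 and PSMA6 with the ratios of the scanner software and the deposited table. There PSMA2 had 0.53 in hybridization 1 and PSMA6 had 0.62 in hybridization 2.

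**Figure D3:**
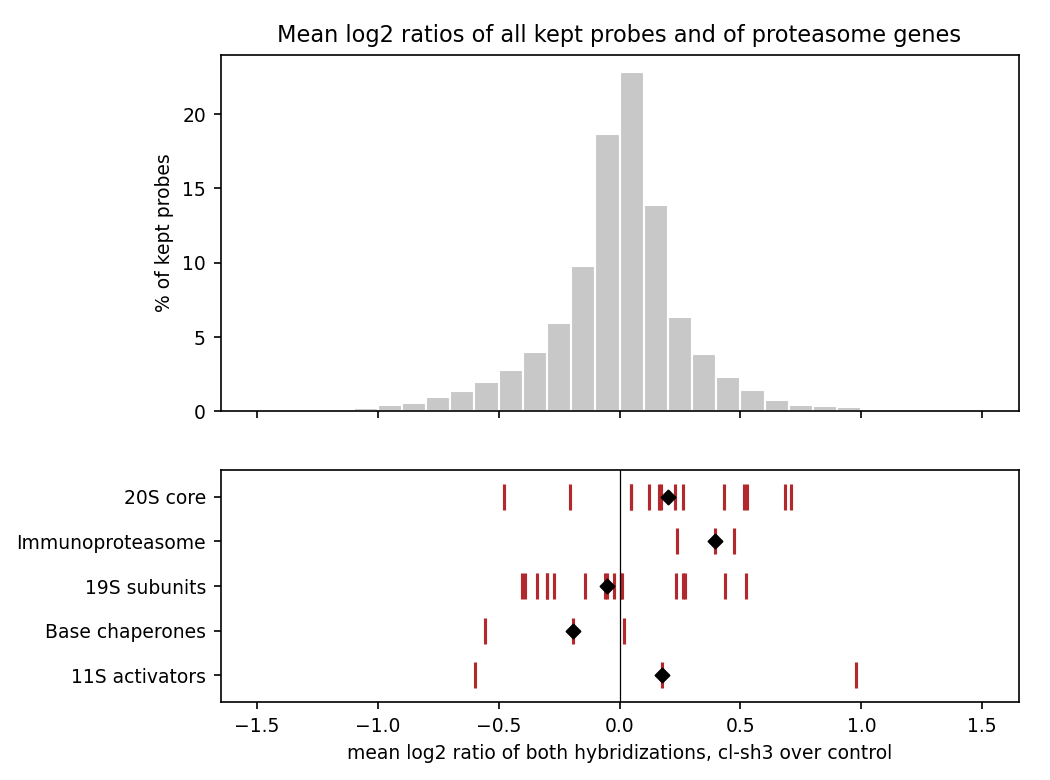
Distribution of the mean log2 ratio of both hybridizations over all kept probes (upper panel, percent of probes in bins of 0.1, with values beyond the axis counted in the end bins) and the proteasome genes on the same x axis (lower panel, 1 tick for each gene, with the group median as a diamond; the 20S core row holds the 14 constitutive genes). The core median is at 0.20, the immunoproteasome median at 0.40 and the 19S median at -0.05, and PSME2 and PSME3 are the outermost ticks on either side.

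**Figure D4:**
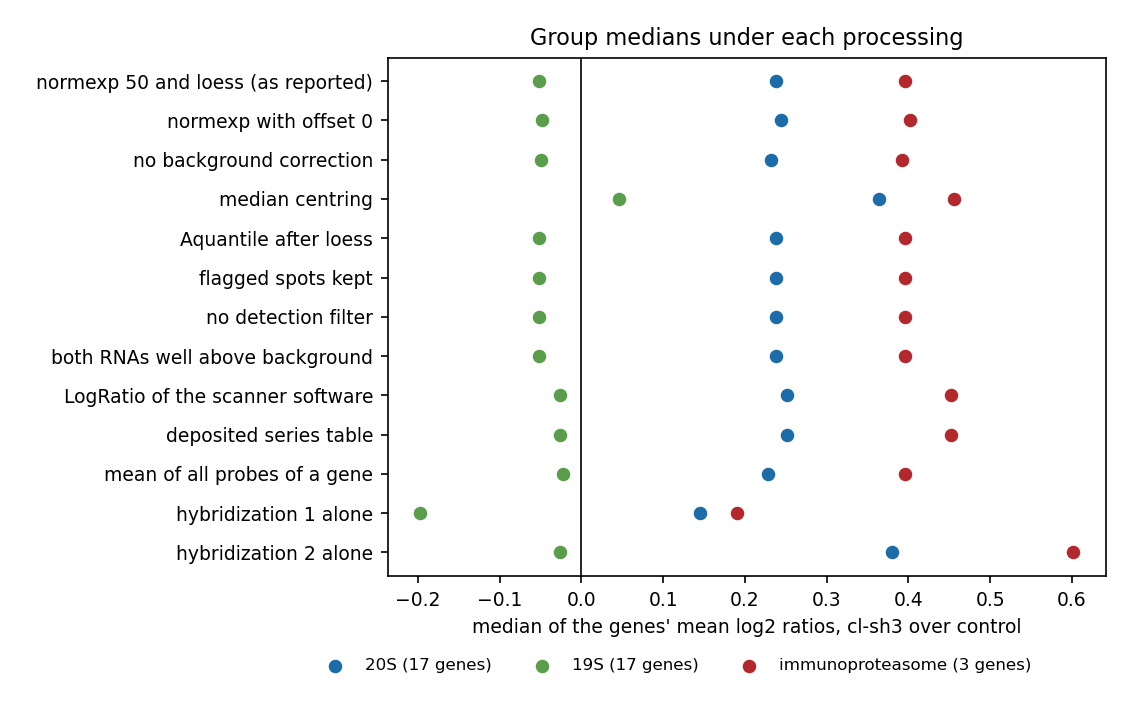
Median log2 ratio of the 20S core genes (immunoproteasome included), the 19S subunits and the immunoproteasome genes (x axis) under each processing (rows). The core stays to the right of the 19S subunits in every row, while the 19S median crosses 0 with median centring.

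ADRM1, SEM1 and genes that serve the proteasome without being part of it were taken from lists of related genes. The transcription control list holds NFE2L1, its relatives NFE2L2 and NFE2L3, their small MAF partners and NGLY1, the glycosidase that processes NFE2L1. Of 7 genes kept, 5 were lower in both hybridizations and 1 was higher, with a median of -0.52. Among all named genes, 28.4% were lower in both and 30.9% were higher. NFE2L3 had -0.84 and -0.60 and was the only gene of the list at least 1.5-fold lower in both. NFE2L1 itself had -0.85 and -0.36 on its brightest probe, but means of -0.20 and 0.07 on its other probes. NFE2L2, the regulator of the oxidative stress response, had -0.40 and -0.85. NFE2L1 and NFE2L2 were chosen after their values were seen. The antioxidant response element that these factors bind, searched as TGACNNNGC on both strands, was in 10 of 35 member windows (28.6%) against 13.6% of all windows. Of these 10 genes, PSMB3, PSMB9, PSMC4, PSMD1, PSMD12, PSME1 and PSME2 were higher in both hybridizations, PSMD5 was lower in both, and PSMD3 and PSMD9 had opposite signs.

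Among 8 partners of the particle, 3 were higher in both hybridizations and 2 were lower, against 30.9% and 28.4% of all named genes. ADRM1, the ubiquitin receptor that docks at PSMD1, had 0.76 and 0.71, and its second probe had 0.93 and 0.63, so that both of its probes were at least 1.5-fold higher in both hybridizations. The other receptor of the base, PSMD4, had a mean of the opposite sign. SEM1, a small subunit of the lid, had 0.21 and 0.56. UCHL5, the deubiquitinase that ADRM1 recruits, had -0.26 and -0.18. Of the 4 genes kept for assembly of the 20S core, 1 was higher and 1 was lower in both, and POMP, the chaperone that completes the core, had -0.61 and 0.01. SEM1, UCHL5 and POMP were chosen after their values were seen.

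The shuttle factors, which carry ubiquitinated proteins to the particle, held 2 genes at least 1.5-fold lower in both hybridizations, RAD23B and UBQLN1. Of all named genes, 2.6% reached that level. Of 9 genes of shuttles and the VCP unfoldase, 4 were higher in both hybridizations and 3 were lower, against 30.9% and 28.4% of all named genes. RAD23B had a normalized intensity of 39814.9 in the control and 21969.6 in cl-sh3 in hybridization 1, and of 37915.0 and 20291.0 in hybridization 2, with log2 ratios of -0.86 and -0.90. Its second probe had a mean of -0.79 and another, much dimmer one 0.38. UBQLN1 had -1.09 and -0.75, with means of -0.32, -0.78, 0.44 and -0.89 on its other 4 probes. UBQLN2, a paralog of UBQLN1, had 0.05 and -0.03. Of the 6 genes of ubiquitin and its activating enzymes, 4 were higher in both and none was lower, with a median of 0.29. The shares of all named genes were again 30.9% and 28.4%. UBQLN2 was chosen after its values were seen.

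**Figure D5:**
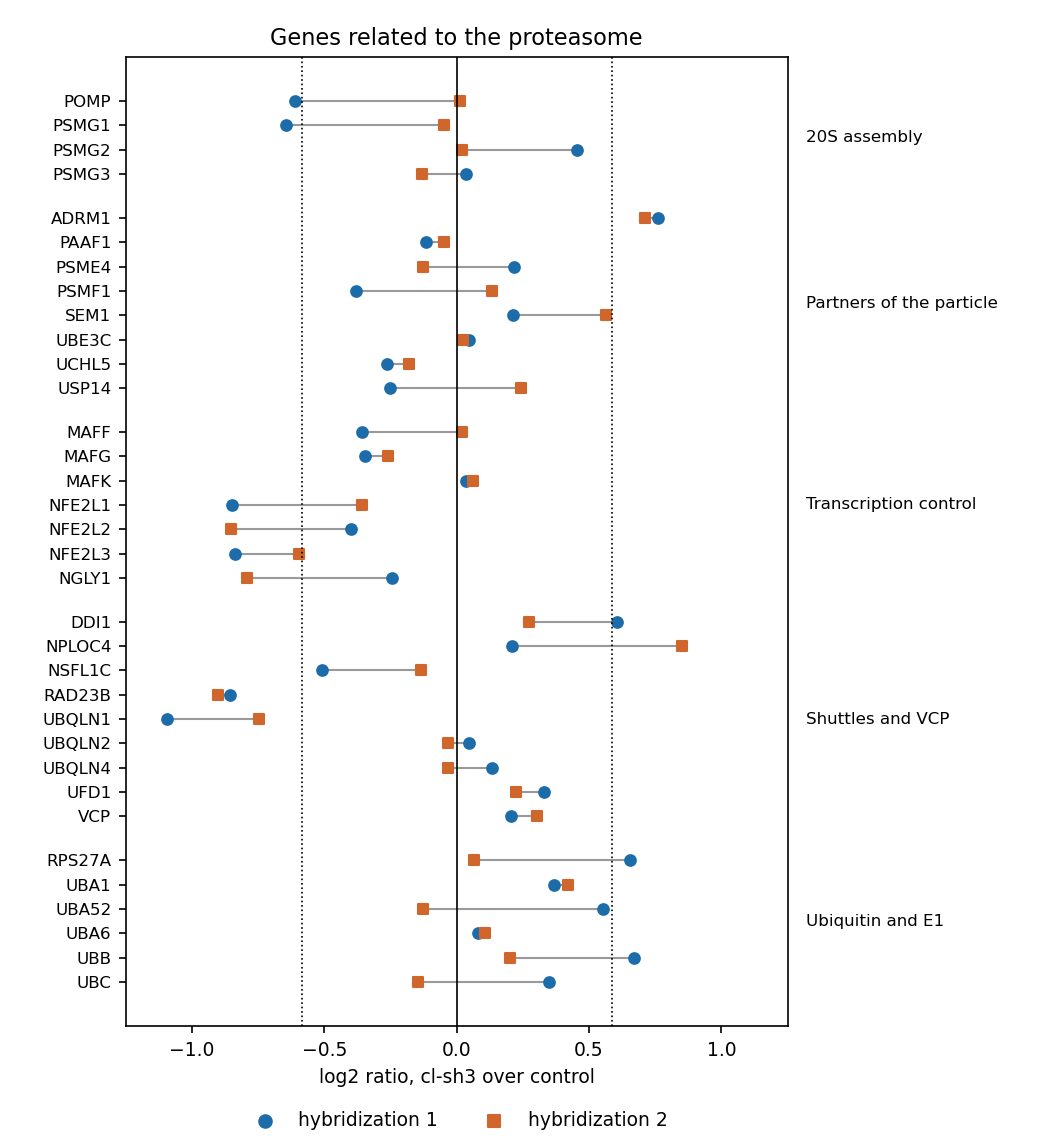
Log2 ratios of cl-sh3 over control (x axis) for genes related to the proteasome (rows, by role), in hybridization 1 (circles) and hybridization 2 (squares). Dotted lines mark 1.5-fold, and ADRM1 lies beyond the right line with both points while NFE2L3, RAD23B and UBQLN1 lie beyond the left one with both.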

How the data were processed

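Total RNA of cl-sh3 and of the control clone was compared on 2-colour arrays in a dye swap. The authors deposited spot intensities read with Agilent Feature Extraction (10.5.1.1 per the file headers, 8.5.1.1 per the labels), and log10 ratios of Cy5 over Cy3 made by that software, which were used only as alternatives. The software's own errors and p-values of ratios were not used. Per array 1639 control spots were removed after normexp correction (offset 50) of median pixel signals over median local background in limma 3.58.1 under R 4.3.3, 153 and 144 flagged spots were set to missing, and loess was applied. Spots of a probe were averaged and log2 ratios were turned to cl-sh3 over control. A probe was kept when the same RNA was well above background (at least 50% of its spots) in both hybridizations. The number of arrays limits the precision.

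Gene names came from a RefSeq table of GRCh38.p14, which held 18023 of 19228 RefSeq accessions (32890 accessions in all). The accession of the brightest RUNX2 probe was named through the gene list of the study's supplement. Promoter windows come from RefSeq, and the arrays were annotated on another build. PSMG4, ECPAS, PSMB11, DDI2 and COL1A1 matched no probe. Some genes of the related lists are not reported here. The members and lists were chosen with earlier results of these data known. Values were given for catalytic pairs, 11S activators, members past 1.5-fold, the 3 highest and 3 lowest means, and related genes past 1.5-fold. The rest were given by range or as said in the text. The normalization was checked on simulated data for this dye swap, with calls made at 2-fold in both hybridizations. There 200 of 200 spots changed 4-fold among 43376 were recovered and 0 unchanged spots were called. Smaller changes, the 1.5-fold rule and the sign counts were not simulated, so the check does not cover them. The 12 alternatives were other background corrections, median centring, Aquantile, flagged spots kept, other detection filters, the software's and the deposited ratios, the mean of all probes, and each hybridization alone. Other steps used numpy 2.4.6 and pandas 2.3.3, and figures matplotlib 3.10.9 (Python 3.11.15).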

Additional observations from a re-analysis of the deposited data

How the results depend on the processing

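Median centring gave 1 member changed at least 2-fold (PSME2) in place of 0, a median of 0.26 in place of 0.05 for the constitutive subunits and of 0.26 in place of 0.09 for all members, and it turned the medians of the 19S subunits (0.0457) and of the lid (0.0220) above 0. The cause was not tested. With each hybridization alone, 13 to 20 members were lower, 5 to 6 were at least 1.5-fold higher, 2 were at least 1.5-fold lower and 0 to 1 were changed at least 2-fold, by construction with 1 ratio to pass in place of 2. The 19S median then ranged from -0.197 to -0.0266, and the core lay above it by 0.34 to 0.41 in place of 0.29. With ADRM1 and SEM1 among the 19S subunits, the 19S median was -0.0224 with loess, 0.11 with median centring and 0.02 with the scanner software's ratios. The core lay above it by 0.26, 0.26 and 0.23 in the means. In the separate hybridizations the core lay above it by 0.13 and 0.25 with the scanner software's ratios, against 0.33 and 0.31 with loess. Of 480 means of single members under alternatives, 459 stayed within the spread of the hybridizations, 21 moved beyond it and 0 changed sign where both hybridizations had 1 sign. Many of these means could not move beyond it, so the count does not measure robustness. Leaving out 1 hybridization cannot pass that spread, and Aquantile and the detection filters left member ratios unchanged. The mean of all probes cannot change the 27 genes with 1 probe. The core, 19S and structural group medians, and the values of single genes under alternatives, were added after seeing the data. With 1 replicate of 1 clone each, no spread between cultures or clones is known, and the brightest probe of each member was well above background and not saturated.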
